A study of Saccharomyces cerevisiae with 10 samples.

Results

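The DNA replication fork genes examined here are 37 genes of budding yeast that encode the replicative polymerases, the sliding clamp and its loader, the single-strand binding protein, the Cdc45 and GINS parts of the helicase, the factors and kinase that switch that helicase on, the proteins that hold the fork together, and thymidylate synthase. They were chosen by name, for the roles of their products at the fork, with earlier results of these data known. All 37 were found among the 5449 named genes of the arrays, each with 1 probe set, and none was dropped by a filter.

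At a replication fork, the helicase unwinds DNA, RPA coats the exposed strand, and polymerase alpha with its primase lays down primers. Polymerase epsilon then extends the leading strand and polymerase delta the lagging strand, both tied to the ring-shaped clamp PCNA, which the RFC complex loads. In budding yeast, transcripts of many of these genes peak late in G1 under the transcription factor MBF, and entry into S phase requires the SCF, a ubiquitin ligase that marks the kinase inhibitor Sic1 for destruction through the F-box protein Cdc4.

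Expression had been measured by Affymetrix array in 5 temperature-sensitive strains, with 1 array for each strain kept at room temperature (25 °C) and another for the same strain held for 1 h at 35 °C. The aim was to find transcripts that depend on the separate SCF products. The strains carried cdc53-1 (strain py175, the cullin scaffold), cdc34-3 (py24, the ubiquitin-conjugating enzyme), cdc4-3 (py187, the F-box protein), and skp1-11 (W303) or skp1-25 (py1374), which are alleles of the adaptor gene. All cells were in mid-log growth in YPDA, a rich glucose medium with adenine. A strain with a working SCF is not analysed here, so warming and loss of SCF function cannot be told apart, and allele cannot be told apart from strain background.

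Levels are log2 array values, and a change is the level at 35 °C minus the level at room temperature in the same strain. Probe sets differ in brightness, so levels are compared between arrays for a gene and never between genes. Array medians lay between 10.96 and 11.14 and correlations between arrays between 0.908 and 0.981. The cdc53-1 arrays stood apart in mating-type genes: the 6 a-specific genes averaged 7.38 at room temperature and 7.21 at 35 °C, against 10.98 to 12.40 on the other 8 arrays, and the 8 haploid-specific genes 6.98 and 7.38 against 10.78 to 11.34. BAR1, an a-specific protease gene, was also low in cdc4-3 (7.57 and 7.26) and skp1-25 (7.86 and 7.71), beside 7.91 and 7.64 in cdc53-1. The 4 alpha-specific genes averaged 6.63 to 7.39 on all 10 arrays. The part of this difference in any result on cdc53-1 was not tested.

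The changes of the replication fork genes lay mostly below 0 in cdc53-1 and mostly above 0 in cdc34-3. In cdc53-1, 34 of the 37 had a negative change, against 50.2% of all genes, and their median change was -0.31 where that of all genes was 0.00. In cdc34-3, 6 had a negative change, against 41.8% of all genes, and the median was 0.27 against 0.06. The other strains lay closer to all genes: cdc4-3 had a median of 0.15 against 0.10, skp1-11 had 0.03 against 0.10, and skp1-25 had 0.08 against 0.02. Negative changes numbered 9, 16 and 14 there, against 36.3%, 36.2% and 47.2% of all genes. Array medians were higher at 35 °C by 0.03 to 0.12. After each array was centred on its median, the fork gene median became -0.34 for cdc53-1, 0.21 for cdc34-3, 0.03 for cdc4-3 and 0.04 for skp1-25, and for skp1-11 its sign turned, to -0.07. RNA was extracted from whole cultures, so fewer cells in a stage of the cell cycle and less RNA per cell cannot be told apart.

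**Figure D1:**
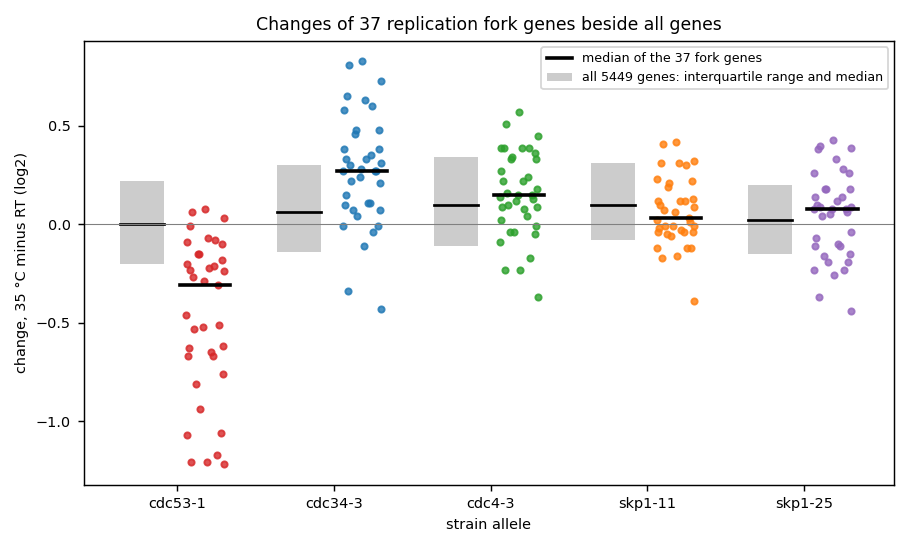
Change (35 °C minus room temperature, log2) of the 37 replication fork genes in each of the 5 strains (coloured points, 1 per gene, with their median as a heavy line) beside the interquartile range and median of all 5449 genes (grey bars). The cdc53-1 points have a median of -0.31 and reach -1.22, and the cdc34-3 points have a median of 0.27 and reach 0.83.

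The changes in cdc53-1 were the lowest of the 5 strains for 33 of the 37 genes, against 29.9% of all genes. A change of -0.5 or lower was seen for 17 genes in cdc53-1, against 7.84% of all genes, and for 0 in the other 4 strains, where 5.16% (cdc34-3), 4.97% (cdc4-3), 3.21% (skp1-11) and 5.41% (skp1-25) of all genes had one. A change of 0.5 or higher was seen for 7 genes in cdc34-3 (POL1, POL12, POL2, DPB2, POL30, RAD27 and SLD5), against 13.6% of all genes, and for 2 in cdc4-3 (PSF1 and SLD5), against 15.1%. The skp1 strains had 0, against 13.2% in skp1-11 and 8.2% in skp1-25. The changes in cdc34-3 were the highest of the 5 for 19 genes, against 22.6% of all genes, and those same 19 were lowest in cdc53-1, a pattern seen in 10.1% of all genes. For 10 genes, POL1, POL30, RFC3, RFC4, RFA2, SLD5, DPB11, CTF4, CSM3 and CDC21, the change was negative in cdc53-1 and positive in the other 4 strains, against 6.15% of all genes. This count was 6 after median centring and 4 after quantile normalization.

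The low values of cdc53-1 were more frequent on the 35 °C arrays, and the median difference of cdc34-3 was larger there. At room temperature the level in cdc53-1 was the lowest of the 5 strains for 6 of the 37 genes, against 20.4% of all genes. At 35 °C it was below all other 9 arrays, a stricter measure, for 28, against 21.9% of all genes. In cdc34-3, the 35 °C level was above all other 9 arrays for 22, against 14.2% of all genes. How often cdc34-3 was the highest strain at room temperature was not counted. Set against the average of the remaining strains, the median fork gene of cdc53-1 differed by 0.00 before the shift and by -0.54 after it. For cdc34-3 these differences were 0.07 and 0.38.

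Each strain's change was tested against the mean of the other 4 with limma. No gene passed in any of the 5 contrasts: 0 of 5449 genes, or 0.0%, were called in each, and 0 of 37 fork genes. With 1 change in a strain against 4, the smallest adjusted p among the fork genes was 0.298 for cdc53-1, which was also the smallest over all genes, and 0.676 for cdc34-3. At an unadjusted p under 0.05, 19 fork genes were lower in cdc53-1, against 6.18% of all genes, and 0 were higher, against 2.57%. In cdc34-3, 2 were higher at that level, RAD27 and MRC1, against 3.45% of all genes, and 0 were lower, against 3.74%. In the other strains 0 fork genes reached it. The shares of all genes higher and lower were 2.62% and 0.991% in cdc4-3, 2.77% and 1.21% in skp1-11, and 1.14% and 3.03% in skp1-25. These values rest on 1 pair of arrays per strain.

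**Figure D2:**
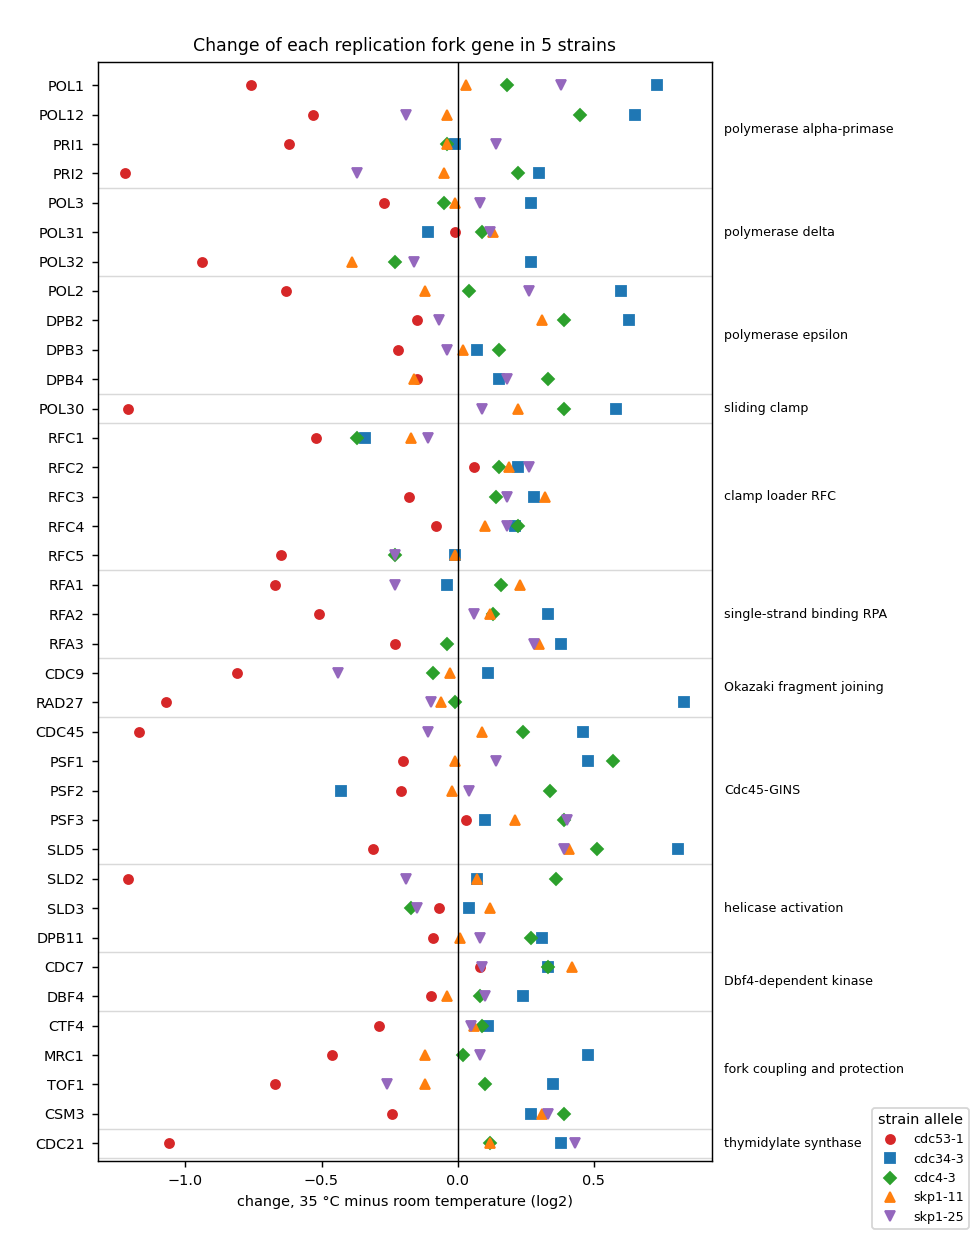
Change (35 °C minus room temperature, log2) of each of the 37 genes in the 5 strains (1 marker per strain), grouped by complex. The red circles of cdc53-1 are the leftmost marker for 33 genes, and the blue squares of cdc34-3 the rightmost for 19.

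Across the 5 strains together, 1 fork gene passed the test for the temperature shift. With strain as a block, 706 genes (13.0%) passed limma's test as higher at 35 °C and 251 (4.61%) as lower. Among the fork genes, 0 were higher and 1, RFC1, was lower. After median centring the counts over all genes were 539 higher and 477 lower, and after quantile normalization 500 and 534, and RFC1 was the fork gene called lower in both. Mean changes of the 37 genes ran from -0.30 to 0.36 with a median of 0.01, against 0.05 for all genes. At an unadjusted p under 0.05, RFC2, PSF3 and CDC7 were higher and RFC1 lower, against 23.5% and 10.6% of all genes. Positive changes in all 5 strains were found for 3 genes (RFC2, PSF3 and CDC7), against 21.7% of all genes, and negative ones for 2 (RFC1 and RFC5), against 11.0%.

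The shift was also fitted without cdc53-1. On the other 4 strains, 2 fork genes were called higher, against 9.43% of all genes, and 0 lower, against 2.28%. SLD5, which encodes a GINS subunit, then rose by 0.53 ± 0.19 (SD, n = 4; limma adjusted p = 0.0251), with changes from 0.39 to 0.81. CSM3, a fork protection gene, rose by 0.33 ± 0.05 (SD, n = 4; limma adjusted p = 0.0366), with changes from 0.27 to 0.39. The mean level of CSM3 lay at percentile 18.7 of all genes, toward the dim end of the arrays. In cdc53-1 the changes of these genes were -0.31 and -0.24. The strain left out is thus the one with the opposite sign, and the calls depend on that choice. Leaving out any other strain instead gave 0 fork genes called higher.

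Values for each complex are given in the order cdc53-1, cdc34-3, cdc4-3, skp1-11 and skp1-25 wherever 5 values follow each other. Differences of cdc53-1 are its change minus the mean change of the other 4 strains, with the standard error of limma, and all have an adjusted p of 0.298 or more. Most genes given in detail were picked for a wide spread of these same changes, which favours small unadjusted p-values. Such p-values are descriptions and are not printed for every gene so picked.

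Polymerase alpha and primase begin each new strand. All 4 of their genes had negative changes in cdc53-1, from -1.22 to -0.53. PRI2, the large primase subunit, stood at 10.25, 10.42, 10.21, 10.80 and 10.14 at room temperature and at 9.03, 10.72, 10.43, 10.75 and 9.77 at 35 °C. Its level in cdc53-1 was within the range of the others before the shift and the lowest of all 10 arrays after it, at 0.429 times its starting level. The difference was -1.24 ± 0.29 (SE; limma unadjusted p = 0.00508).

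POL1, the catalytic subunit of polymerase alpha, had changes of -0.76, 0.73, 0.18, 0.03 and 0.38, and its 35 °C level of 12.67 in cdc34-3 was the highest of the 10 arrays. POL12, the regulatory subunit, had changes of -0.53, 0.65, 0.45, -0.04 and -0.19. PRI1, the catalytic primase subunit, had -0.62, -0.01, -0.04, -0.04 and 0.14. The change of PRI1 was thus near 0 in cdc34-3, while its level there, 10.75 at room temperature and 10.74 at 35 °C, was above the other 8 arrays at both temperatures. DPB3, SLD2 and CDC21 also had both cdc34-3 arrays above the other 8, and the share of all genes is not given here.

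In polymerase delta, which copies the lagging strand, the subunits diverged. POL32, a nonessential accessory subunit that binds PCNA, stood at 10.35, 10.42, 10.46, 10.67 and 10.50 at room temperature and at 9.41, 10.69, 10.23, 10.28 and 10.34 at 35 °C. It was lowest in cdc53-1 at both temperatures, by little before the shift and by more after it, and its change of -0.94 gave a difference of -0.81 ± 0.27 (SE; limma unadjusted p = 0.0238). POL31, the essential accessory subunit, had changes between -0.11 and 0.13, and POL3, the catalytic subunit, between -0.27 and 0.27. POL31 had one of the narrowest spreads of the 37 genes, at 0.24 from the lowest to the highest change, against 1.21 for POL32.

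Polymerase epsilon copies the leading strand. POL2, its catalytic subunit, stood at 10.64, 10.75, 10.43, 10.35 and 10.92 at room temperature and at 10.01, 11.35, 10.47, 10.23 and 11.18 at 35 °C. The cdc53-1 and cdc34-3 cultures, which were 0.12 apart before the shift, ended at the bottom and the top of the range. DPB2, an essential subunit, had changes of -0.15, 0.63, 0.39, 0.31 and -0.07, and the value of cdc53-1 was close to that of skp1-25. DPB4, a histone-fold subunit, stayed between -0.16 and 0.33.

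DPB3, the other histone-fold subunit of polymerase epsilon, differed between strains at both temperatures. It stood at 10.54, 10.61, 10.28, 9.56 and 10.35 at room temperature and at 10.32, 10.68, 10.43, 9.59 and 10.30 at 35 °C. Both skp1-11 arrays lay below the other 8, a separation seen in 5.07% of all genes, and its changes were small, between -0.22 and 0.15. The level of skp1-11 was lower than the mean of the other strains by limma, at -0.86 ± 0.09 (SE; adjusted p = 0.00432), where 2.92% of all genes were called lower and 1.74% higher. The SE rests on the variation left after strain and temperature, not on the spread between strains. DPB3 was the only fork gene of the 37 called in this contrast. The same contrast called 0 fork genes for cdc34-3 (0.239% of all genes higher and 0.0918% lower), cdc4-3 (2.46% and 0.789%) and skp1-25 (1.08% and 1.73%).

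POL30 encodes PCNA, the sliding clamp. It stood at 12.43, 12.65, 12.66, 12.57 and 12.53 at room temperature and at 11.22, 13.23, 13.05, 12.79 and 12.62 at 35 °C. The strains were within 0.24 of each other before the shift, and afterwards cdc53-1 alone had gone below its starting level, to 0.433 times that level. Its mean was 12.57 ± 0.10 at room temperature and 12.58 ± 0.80 at 35 °C (SD, n = 5), so the averages were close while the spread widened. The difference of cdc53-1 was -1.53 ± 0.23 (SE; limma unadjusted p = 0.000558, adjusted p = 0.298).

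The clamp loader RFC held the fork gene called in the shift. RFC1, its large subunit, stood at 11.05, 11.39, 11.25, 11.50 and 11.46 at room temperature and at 10.53, 11.05, 10.88, 11.33 and 11.35 at 35 °C. It fell by 0.30 ± 0.17 (SD, n = 5; limma adjusted p = 0.045), with changes of -0.52, -0.34, -0.37, -0.17 and -0.11, a negative sign in 5 of 5 strains. The levels at the 2 temperatures overlapped between strains, and without any 1 strain the adjusted p was 0.0561 (without skp1-25) to 0.133 (without cdc4-3).

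RFC2, RFC3 and RFC4 did not share the low values of cdc53-1 to the same size. RFC2 had changes of 0.06, 0.22, 0.15, 0.19 and 0.26 (mean 0.18 ± 0.08, SD, n = 5; limma adjusted p = 0.0845). RFC4 stood between 10.73 and 10.84 at room temperature, and at 35 °C at 10.67 in cdc53-1 and between 10.92 and 10.96 in the others. RFC3 had a change of -0.18 in cdc53-1 and 0.14 to 0.32 elsewhere.

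RFC5 was the small subunit with the widest spread. It stood at 11.72, 11.74, 11.73, 11.67 and 11.70 at room temperature and at 11.07, 11.73, 11.51, 11.66 and 11.46 at 35 °C. Its 5 levels lay within 0.07 of each other before the shift, and its changes were -0.65, -0.01, -0.23, -0.01 and -0.23.

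RPA keeps single-stranded DNA open. RFA1, its largest subunit, stood at 11.98, 12.06, 11.98, 12.08 and 11.85 at room temperature and at 11.30, 12.02, 12.14, 12.31 and 11.62 at 35 °C. Here cdc53-1 was again the lowest array, and skp1-11 rather than cdc34-3 was the highest. RFA2 had changes of -0.51, 0.33, 0.13, 0.12 and 0.06, and RFA3 had -0.23, 0.38, -0.04, 0.30 and 0.28.

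RAD27 and CDC9 act in finishing Okazaki fragments. RAD27, the flap endonuclease that trims them, stood at 11.08, 11.18, 11.42, 11.40 and 11.36 at room temperature and at 10.02, 12.01, 11.41, 11.33 and 11.26 at 35 °C. Its change was -1.07 in cdc53-1 and 0.83 in cdc34-3, and between -0.10 and -0.01 in the other 3 strains. That span of 1.89 was the widest of the 37 genes, and the 0.83 was the highest change of any fork gene in any strain.

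CDC9, the DNA ligase that seals the fragments, stood at 10.42, 10.86, 10.74, 11.06 and 11.02 at room temperature and at 9.62, 10.97, 10.65, 11.03 and 10.58 at 35 °C. Both cdc53-1 arrays lay below the other 8, as they did for POL30, RAD27 and DPB11, a separation seen in 7.47% of all genes. Over both temperatures, limma called the level of cdc53-1 lower than the other strains for CDC9, by -0.85 ± 0.17 (SE; adjusted p = 0.0443), and for RFC1, by -0.49 ± 0.10 (SE; adjusted p = 0.0409). These were 2 of the 37 genes, where 3.08% of all genes were called lower and 2.72% higher. The CDC9 call was lost without cdc4-3, skp1-11 or skp1-25 (adjusted p = 0.0748, 0.103 and 0.0827), and the RFC1 call without cdc34-3, cdc4-3, skp1-11 or skp1-25 (0.0524, 0.0595, 0.0988 and 0.0875) and after median centring (0.0513). The 2 arrays of a strain share its background, and the level of cdc53-1 includes its low 35 °C values.

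**Figure D3:**
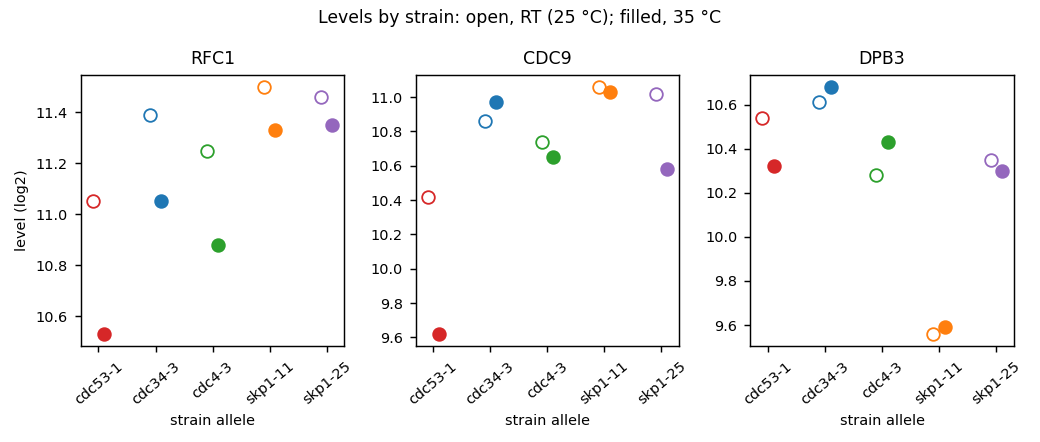
Level (log2) of RFC1, CDC9 and DPB3 on the 10 arrays by strain, with open circles for room temperature (25 °C) and filled circles for 35 °C. For DPB3 both skp1-11 arrays lie at 9.56 and 9.59, under all others, and for CDC9 both cdc53-1 arrays lie at 10.42 and 9.62.

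Cdc45 and the 4 GINS proteins join the Mcm2-7 ring to make the active helicase. CDC45 stood at 10.36, 10.29, 10.37, 10.45 and 10.41 at room temperature and at 9.19, 10.75, 10.60, 10.54 and 10.29 at 35 °C. Before the shift its levels were within 0.15 of each other, and afterwards cdc53-1 was 1.11 below the next strain. The difference of cdc53-1 was -1.34 ± 0.24 (SE; limma unadjusted p = 0.00162).

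The GINS genes had smaller changes in cdc53-1 than CDC45. In cdc53-1, PSF1, PSF2, PSF3 and SLD5 had changes of -0.20, -0.21, 0.03 and -0.31. PSF2 was the fork gene with the lowest change in cdc34-3, at -0.43, and in cdc4-3 its 35 °C level of 10.92 stood over the 10.32 to 10.42 of the other strains. PSF3 had changes of 0.03, 0.10, 0.39, 0.21 and 0.40 (limma adjusted p = 0.0963). SLD5 stood at 10.01, 9.66, 9.79, 9.64 and 9.86 at room temperature and at 9.70, 10.47, 10.30, 10.06 and 10.25 at 35 °C, and cdc53-1 went from the highest of the 5 strains to the lowest.

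Sld2 and Sld3 are the targets through which cyclin-dependent kinase starts replication, and Dpb11 binds both. SLD2 stood at 9.0, 9.42, 8.96, 9.29 and 9.12 at room temperature and at 7.79, 9.49, 9.32, 9.35 and 8.93 at 35 °C. In cdc53-1 it went to 0.431 times its starting level, a difference of -1.29 ± 0.23 (SE; limma unadjusted p = 0.00156). The mean level of SLD2 lay at percentile 11.9 of all genes, so these values sit toward the dim end of the arrays. SLD3 stayed between -0.17 and 0.12 in the 5 strains and DPB11 between -0.09 and 0.31.

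The Cdc7 kinase and its activator Dbf4 phosphorylate the Mcm2-7 ring at origins. CDC7 stood at 10.38, 10.41, 10.27, 10.32 and 10.47 at room temperature and at 10.46, 10.74, 10.60, 10.74 and 10.56 at 35 °C. All 5 changes were positive, at 0.08, 0.33, 0.33, 0.42 and 0.09, without passing the test (mean 0.25 ± 0.16, SD, n = 5; limma adjusted p = 0.0659). DBF4 had changes between -0.10 and 0.24. The changes of CDC7 spanned 0.34, the narrowest span among the widest members of the 12 groups.

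Ctf4 ties the helicase to polymerase alpha, and Mrc1, Tof1 and Csm3 travel with the fork and relay checkpoint signals. TOF1 stood at 10.01, 9.96, 9.99, 10.11 and 10.12 at room temperature and at 9.34, 10.31, 10.10, 9.99 and 9.85 at 35 °C. The order of cdc53-1 below and cdc34-3 above the rest appeared after the shift. MRC1 had the same ends, with changes of -0.46, 0.48, 0.02, -0.12 and 0.08. CTF4 had a small change of -0.29 in cdc53-1, with 0.05 to 0.11 in the others.

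CSM3, which encodes the partner of Tof1, stood at 9.60, 9.85, 9.47, 9.52 and 9.59 at room temperature and at 9.36, 10.12, 9.86, 9.84 and 9.92 at 35 °C. In cdc53-1 its 35 °C level was the lowest of the 10 arrays, and the other 4 changes were close to each other.

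CDC21, thymidylate synthase, makes the thymine nucleotide for DNA. It stood at 11.30, 11.36, 10.88, 11.03 and 10.81 at room temperature and at 10.24, 11.74, 11.00, 11.16 and 11.24 at 35 °C. In cdc53-1 it started as the second highest strain and ended as the lowest, at 0.48 times its starting level. Its mean change over the 5 strains was 0.00 ± 0.61 (SD, n = 5), and the difference of cdc53-1 was -1.32 ± 0.20 (SE; limma unadjusted p = 0.000599, adjusted p = 0.298).

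**Figure D4:**
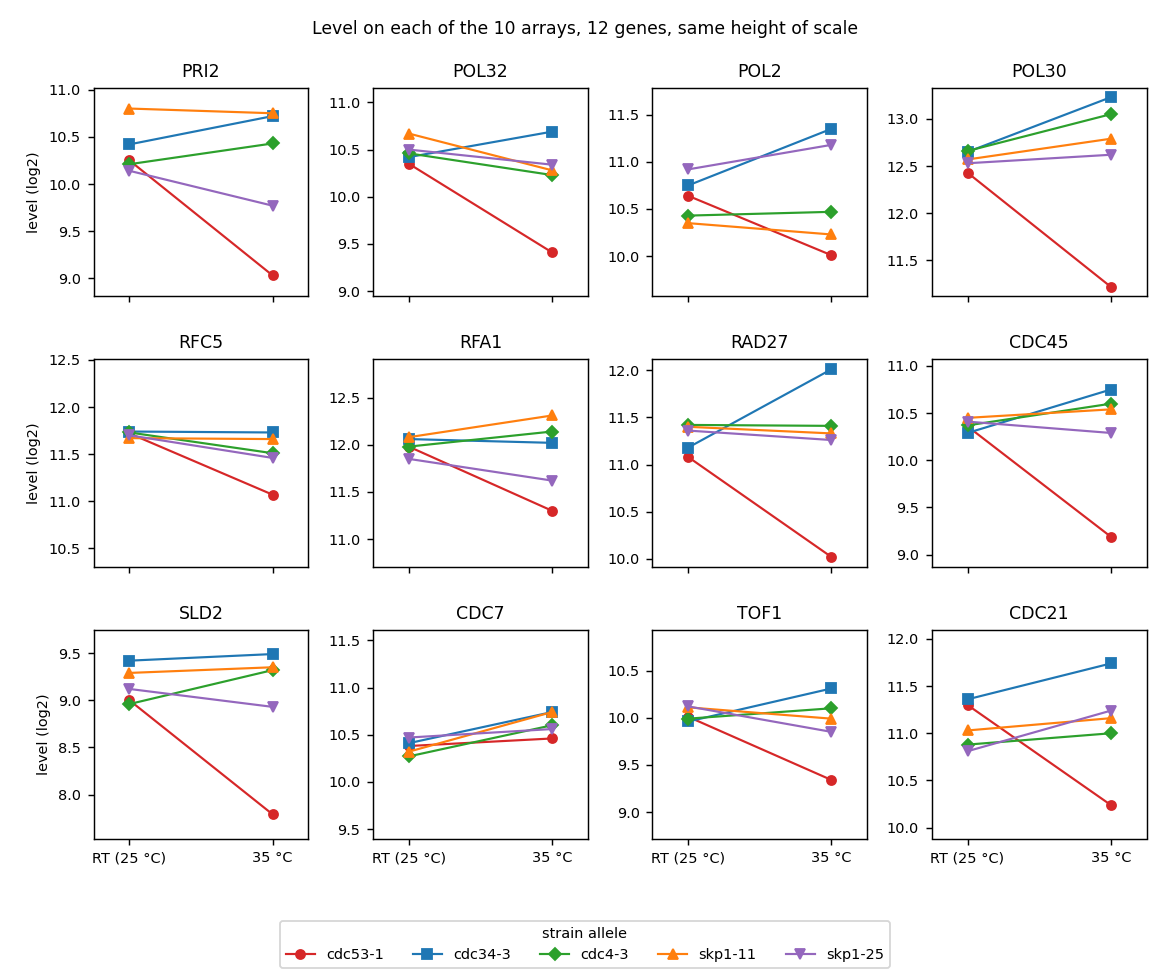
Level (log2) at room temperature and 35 °C in each strain, for the gene with the widest spread of changes in each of the 12 groups of fork genes; every panel spans the same height of scale. The cdc53-1 line is the lowest at 35 °C in all 12 panels, as at 11.22 for POL30, and the changes of CDC7 span the least (0.34).

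The skp1 strains carry different alleles of the same adaptor gene. The median absolute difference between skp1-11 and skp1-25 was 0.15 over the 37 genes and 0.20 over all genes. It ran from -0.38 for POL2 to 0.46 for RFA1, and 0 of 37 genes differed by 0.5 or more, where 828 of 5449 did. With 1 array per allele and temperature, a test of this difference was not made.

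Other genes of replication and of the cell cycle gave a frame for these values. A list of Mcm2-7 helicase and loading genes held the 6 MCM genes of the ring, the 6 ORC genes, CDC6 and TAH11. MCM10 was set beside them in this list without being a loading gene. These genes had medians near those of all genes in cdc53-1 and cdc34-3. Their median change was 0.02 in cdc53-1 and 0.03 in cdc34-3, and 5 of 15 were negative in cdc53-1, against 50.2% of all genes. In skp1-25 their median was -0.17, where that of all genes was 0.02, and 9 of 15 were negative, against 47.2% of all genes. In the shift 0 were called, against 13.0% of all genes higher and 4.61% lower. CDC6, whose product loads the Mcm2-7 ring, had changes of -0.48, 0.54, 0.32, 0.18 and -0.38.

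Among 13 alternative clamp loader and other fork enzyme genes, 1 was called higher, against 13.0% of all genes, and 0 lower, against 4.61%. It was RNH203, a ribonuclease H2 subunit, which rose by 0.56 ± 0.18 (SD, n = 5; limma adjusted p = 0.00901). RNH201, the catalytic subunit of that enzyme, had changes of -1.67, 0.43, -0.38, -0.33 and 0.10. The list median was 0.06 in cdc53-1 and 0.41 in cdc34-3. Among 8 genes of deoxynucleotide supply, 1 was called higher and 0 lower, against the same shares of all genes. It was RNR3, a ribonucleotide reductase subunit known to be induced by DNA damage, which rose by 0.60 ± 0.27 (SD, n = 5; limma adjusted p = 0.0152). RNR1, the main large subunit, had changes of -1.43, 1.06, 0.32, 0.34 and 0.32.

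G1/S cyclin and regulator genes, many of them expressed late in G1, lay farther from 0 in both strains. Their median change was -1.67 in cdc53-1 and 0.77 in cdc34-3, all 11 were negative in cdc53-1, and 0 were called across the strains. Of all genes, 50.2% were negative in cdc53-1, and 13.0% were called higher and 4.61% lower across the strains. TOS4 had changes of -2.01, 0.41, -0.23, -0.16 and -0.12, and YOX1, a repressor gene, -1.76, 1.27, 0.91, 0.47 and 0.04. The 7 measured core histone genes had a median of -0.65 in cdc53-1 and 0.22 in cdc34-3, with 7 of 7 negative in cdc53-1, and 0 were called.

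The listed genes of mitosis had a median change below 0 in all 5 strains. Of 9 CLB2 cluster genes 7 were called lower, against 4.61% of all genes, and 0 higher, against 13.0%. Their medians ran from -1.08 in cdc53-1 to -0.38 in skp1-25. CLB1, a mitotic cyclin gene, was 1 of the 2 not called, with changes of -1.34, 0.50, -0.46, 0.14 and 0.20. The 7 early G1 genes had medians of -0.01 in cdc53-1, 0.53 in cdc34-3 and -0.42 in skp1-25, with 0 called. The part of these lists in the fork gene values was not tested.

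**Figure D5:**
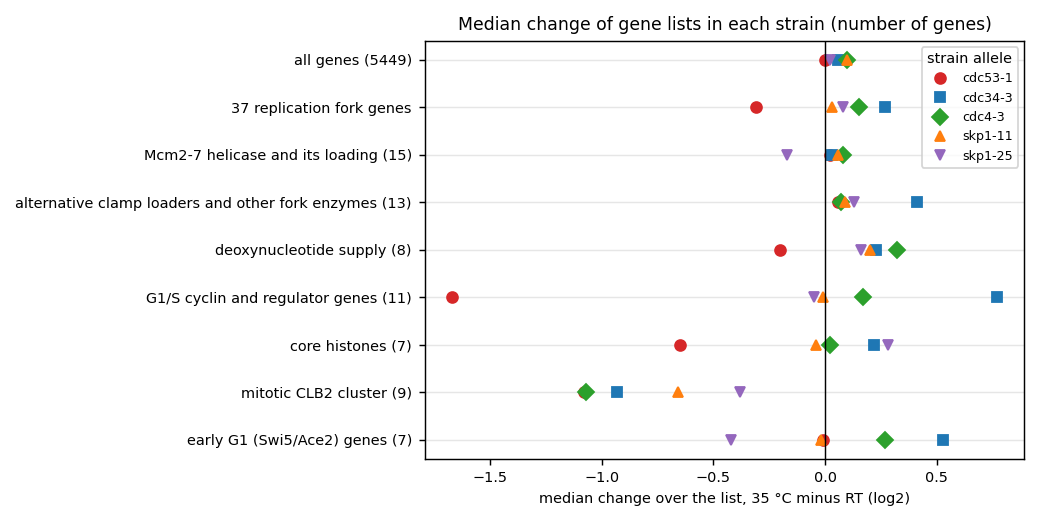
Median change (35 °C minus room temperature, log2) over each gene list in each strain, with the number of genes in brackets. The replication fork genes and the G1/S genes have cdc53-1 at the low end (-0.31 and -1.67) and cdc34-3 at the high end (0.27 and 0.77), whereas the helicase loading genes lie at 0.02 and 0.03 in those strains.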

How the data were processed

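Total RNA from 10 cultures was labelled with biotin for Affymetrix arrays, per the labels' protocols. The authors deposited 1 value per probe set and array. The log2 scale was inferred from the range of the deposited values; how probes were summarised, corrected and normalized is not given in the sources used here. Of 5716 probe sets, 5498 had 1 gene symbol in the platform annotation, 0 several and 218 none; 12 symbols were updated through a RefSeq table of assembly R64. The brightest probe set stood for each of 47 genes with more than 1, leaving 5449 genes, with no filter on low values. No sequence was used here.

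limma 3.58.1 in R 4.3.3 (lmFit, eBayes) was used, two-sided, adjusted over all 5449 genes by Benjamini-Hochberg, with a threshold of 0.05. The shift was fitted with strain as a block, because the labels give both arrays of a strain the same allele. Deviations from the temperature means correlated at 0.43 to 0.77 within a strain and at most 0.12 between strains. Subtracting those means lowers the correlations between strains by construction, so that gap is not a test of the pairing. Each strain's change, and its level over both temperatures, was set against the mean of the other 4, the lone strain being assumed to vary like the others. The labels mention no repeat cultures. For the shift and the contrasts of changes, p-values reflect how the changes of the strains spread. For the contrasts of levels they rest on the variation left after strain and temperature. The 2 arrays of a strain act there as its repeats, and the spread between strains does not enter. On simulated data, with 200 of 5449 genes changed in 10 runs, the shift fit recovered 63.4% of genes changed by 0.5, the contrast of cdc53-1 changes 35.2% of those changed by 1 and 76.6% of those changed by 2, and the contrast of cdc53-1 levels 91.1% of those changed by 1. The shift fit called 0.154% of unchanged genes. That share was not taken for the contrasts of changes and levels, so their recovery does not show how often they call unchanged genes. For these contrasts the added changes were all upward, of 1, 2 or 4, with noise drawn independently for each gene and array. Their recovery holds for that setting only and does not measure what the contrasts could find in the real arrays.

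Alternatives were median centring, quantile normalization, the mean over probe sets, leaving out the lowest 20% of genes, an intensity trend, no strain block, and each strain left out in turn. Members and lists were chosen with earlier results of these data known. All members could be named; values on every array were given for called members and for the member of each complex with the widest spread of changes, and up to 3 genes of a context list by mean change and by the cdc53-1 difference.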

Additional observations from a re-analysis of the deposited data

Results flagged for a closer look

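In 111 sets of 5 values (levels at each temperature and changes of the 37 genes), 9 had 1 strain far from the other 4, by a gap over 0.71 of the whole range; chance sets apart about 1 in 20. Of these, 5 were changes in cdc53-1. They were PRI1 at -0.62 (others -0.04 to 0.14), POL30 at -1.21 (0.09 to 0.58), CTF4 at -0.29 (0.05 to 0.11), CSM3 at -0.24 (0.27 to 0.39) and CDC21 at -1.06 (0.12 to 0.43). At room temperature, RFC4 stood at 10.84 in skp1-11 (others 10.73 to 10.76), a small distance among close values, and DPB11 at 10.28 in skp1-25 (9.85 to 9.94). At 35 °C, RFC4 stood at 10.67 in cdc53-1 (10.92 to 10.96) and PSF2 at 10.92 in cdc4-3 (10.32 to 10.42).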

How the results depend on the processing

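Most counts of fork genes in cdc53-1 and cdc34-3 kept within 1.5 times under each alternative run for them. Genes with the lowest change in cdc53-1 numbered 30 to 35, those at -0.5 or lower 16 or 17, those below all other arrays 26 to 30, those with the highest change in cdc34-3 19 to 23 and those above all other arrays 20 to 26. Alternatives for 4 counts were added after seeing the data. Negative changes numbered 32 to 34 in cdc53-1 and 6 or 7 in cdc34-3, and changes of 0.5 or higher 6 or 7 in cdc34-3. Genes negative in cdc53-1 and positive in all other strains, 10 in the text, numbered 6 after median centring, 4 after quantile normalization and 11 to 15 with a strain left out. Fork genes lower in cdc53-1 at an unadjusted p numbered 14 to 18 with a strain left out, and 0 were called. Those higher in cdc34-3 at that level, 2 in the text, numbered 0 (without skp1-11) to 3 (without cdc53-1). For the shift, leaving out a strain gave 291 to 527 genes higher and 80 to 136 lower, with 0 to 2 fork genes higher and 0 lower in each. Without the strain block (no pairing), 282 genes were higher and 67 lower and 0 fork genes were lower; RFC1 had adjusted p = 0.305. Median centring gave 477 genes lower and quantile normalization 534, and median centring left 1 fork gene with a lower level in cdc53-1; leaving out a strain left 0 or 1. DPB3 stayed called in skp1-11 each time. No called gene turned its sign, and 50 of 763 gene results that were called under neither setting did. The number of arrays limits precision, and cdc53-1 has 1 pair.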

Other observations

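Across the 37 genes, the changes in cdc53-1 and cdc34-3 had a Spearman correlation of -0.24, where it was 0.32 over all 5449 genes; the strains share no array. The other 9 pairs of strains ran from 0.08 to 0.44 over the 37 genes and from 0.40 to 0.60 over all genes. Genes within an array are not independent, so these are descriptions.

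In the RefSeq table of assembly R64, 3 pairs of adjacent genes hold a fork gene and another gene of the lists. RFC5 and POL30 are convergent neighbours, and their changes in cdc53-1 were -0.65 and -1.21, and in cdc34-3 -0.01 and 0.58. RFC3 lies beside PCL1, a G1 cyclin gene on the same strand, and the changes in cdc53-1 were -0.18 and -2.04. POL2 lies beside ORC5, an origin recognition gene, with -0.63 and -0.41.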
